A study of Homo sapiens with 12 samples.

Results

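The 8 genes described here had been picked because they read higher after siRNA against SRC-1: PTPN22, CAV1, ATP8B1, ARHGAP29, PSTPIP2, CBX6, RIPOR2 and ARRDC3. They are 8 of the 18417 gene symbols with a probe set of their own, and each was measured by 1 probe set. The cells were U2OS-ERα, a human osteosarcoma line that carries estrogen receptor α. Their RNA was hybridised to 12 arrays of the Affymetrix Human Gene 1.0 ST type. There were 4 groups of 3 biological replicates: SRC-1 siRNA with 17-B-estradiol (siSRC-1_E), SRC-1 siRNA with ethanol vehicle (siSRC-1_V), non-targeting siRNA with 17-B-estradiol (NT_E) and non-targeting siRNA with ethanol vehicle (NT_V). Every group received 50 nM of an siRNA pool and was treated for 3 h. All arrays come from 1 cell line, the labels do not say how the cultures were separated, and p-values measure the spread between these arrays. Bulk RNA cannot tell fewer expressing cells from less RNA per cell.

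SRC-1, encoded by NCOA1, is a coactivator that nuclear receptors recruit once they bind hormone, and it brings histone acetyltransferases to their target genes. The 8 genes belong to different systems: membrane structure and lipid asymmetry (CAV1, ATP8B1), receptor turnover (ARRDC3), control of cell shape and migration (ARHGAP29, RIPOR2), immune-cell signalling (PTPN22, PSTPIP2) and chromatin (CBX6).

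NCOA1 checked the knockdown. It read 6.79, 6.88 and 6.92 log2 in siSRC-1_E, against 9.15, 9.06 and 9.02 in NT_E. It read 6.18, 5.62 and 5.78 log2 in siSRC-1_V, against 8.81, 8.72 and 8.83 in NT_V. The transcript left was 21.5% under estradiol and 13.2% under vehicle. The difference between treatments was 0.71 log2 (95% interval 0.36 to 1.06) and did not pass the test (limma adjusted p = 0.442). NCOA1 itself read higher with estradiol, 1.57-fold averaged over siRNAs (limma adjusted p = 0.000349). With SRC-1 siRNA it differed by 1.00 ± 0.11 log2 (SE, limma adjusted p = 0.00029), a result that was weaker under 1 alternative. With non-targeting siRNA it differed by 0.29 ± 0.11 (limma adjusted p = 0.275, not called). ESR1, which encodes the receptor, had 2 probe sets, and only the one with the higher mean is given. It averaged 12.03 log2 in siSRC-1_E, 12.11 in siSRC-1_V, 12.14 in NT_E and 12.16 in NT_V. Its knockdown difference was -0.12 log2 under estradiol (limma adjusted p = 0.163) and -0.05 under vehicle (0.674), neither called. NCOA2, a paralogue of NCOA1, averaged 8.74, 8.69, 8.59 and 8.60 in the same order of groups. Of 6 osteoblast-type markers, SPARC averaged 12.54 and VIM 12.46 log2 over the 12 arrays. RUNX2 averaged 7.21, above the median of every array, and COL1A2 averaged 6.62, below the median of every array. Levels of the other markers are not given here. Signal over background was not measured, so these levels do not show which of the 6 were present. Of these 6 markers, ALPL, alkaline phosphatase, fell with SRC-1 siRNA by 0.33 log2 (limma adjusted p = 0.000179). PTPRC, the pan-leukocyte marker, averaged 4.19 log2, below the lower quartile of every array (5.13 to 5.19), although PTPN22, PSTPIP2 and RIPOR2 are best known from blood cells. PTPRC was picked out after its value was seen, and apart from LYZ the other blood cell markers are given as a sum only. The 5 measured blood cell markers summed to between 25.69 and 26.38 log2 in siSRC-1_E, 25.66 and 26.23 in siSRC-1_V, 26.46 and 26.81 in NT_E and 25.44 and 25.97 in NT_V. LYZ, the lysozyme gene, was the only one of the 5 called for estradiol averaged over both siRNAs, at 0.68 log2 and a mean level of 4.41. By these sums, the blood cell markers without a level here averaged above PTPRC, above LYZ and above the lower quartile. PTPRC therefore does not stand for the 5. None of the 4 measured epithelial markers was called for either averaged contrast: KRT8 differed by 0.04 log2 and KRT18 by -0.06 with SRC-1 siRNA, and 1 and 0 of the 4 had an unadjusted p under 0.05 for knockdown and estradiol. The share of all probe sets at that unadjusted cut is not given here, so nothing is read from these counts.

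The choice of the 8 genes used the knockdown contrasts, so their knockdown differences are a description with no test. Over both treatments together they averaged 0.30 to 0.53 log2, with a median of 0.41 beside 0.00 for the 29094 tested probe sets. Under estradiol they lay between 0.02 and 0.62 log2 (1.02-fold to 1.53-fold), and under vehicle between 0.38 and 0.69 (1.30-fold to 1.62-fold). In 7 of 8 genes under estradiol and 8 of 8 under vehicle, every SRC-1 siRNA array lay above every non-targeting array. That held for 10.7% and 8.19% of all tested probe sets, and under both treatments for 7 of the 8 and 2.63% of all. At the thresholds of the design text (p under 0.01 and adjusted p under 0.05), 7 and 6 of the 8 were called higher, beside 0.732% and 0.265% of all, and 5 were called under both, beside 0.131%. Nothing is read from these counts, since the members were picked on them. The exception under estradiol was PTPN22, for which the data go against the name of the set.

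**Figure D1:**
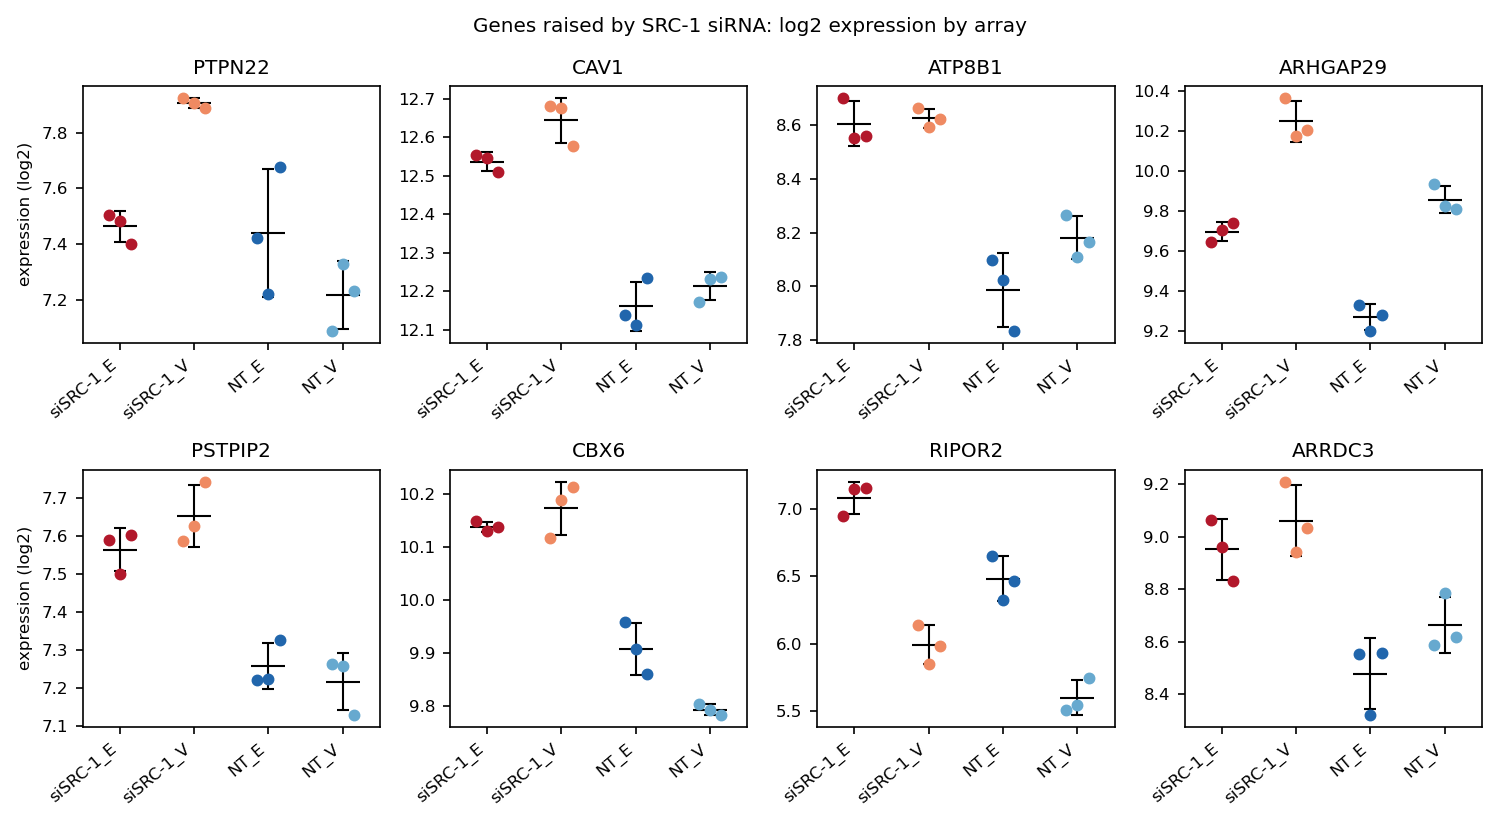
Log2 expression of the 8 genes (y axis, a scale of its own in each panel) in the 12 arrays, by group (x axis). Points are arrays, and black lines are group means with SD (n = 3). ARHGAP29 and RIPOR2 differ with hormone as well as with siRNA, and PTPN22 stands apart in siSRC-1_V only.

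CAV1 encodes the main structural protein of caveolae, the flask-shaped pits of the plasma membrane, and its probe set lay at the 99 percentile of all tested. Under estradiol it read 12.55, 12.55 and 12.51 log2 with SRC-1 siRNA, against 12.14, 12.11 and 12.23 with non-targeting siRNA. Under vehicle it read 12.68, 12.68 and 12.58 with SRC-1 siRNA, against 12.17, 12.23 and 12.24 with non-targeting siRNA. The siRNA groups were far apart under either treatment while the replicates lay close together: the difference was 0.38 ± 0.05 log2 (SE) under estradiol and 0.43 ± 0.05 under vehicle. ATP8B1 encodes a P4-ATPase that flips phospholipids to the inner leaflet, known from inherited cholestasis. It read 8.70, 8.55 and 8.56 log2 in siSRC-1_E, against 8.10, 8.02 and 7.83 in NT_E. It read 8.66, 8.59 and 8.62 in siSRC-1_V, against 8.27, 8.11 and 8.17 in NT_V. Its difference was 0.62 ± 0.07 log2 under estradiol and 0.44 ± 0.07 under vehicle, and averaged over treatments it ranked 4 of 29094 from the top.

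ARRDC3 encodes an α-arrestin, an adaptor that brings NEDD4-type ubiquitin ligases to membrane receptors. It read 9.06, 8.96 and 8.83 log2 in siSRC-1_E, against 8.56, 8.32 and 8.56 in NT_E. It read 9.21, 8.94 and 9.03 in siSRC-1_V, against 8.59, 8.79 and 8.62 in NT_V. No arrays of the siRNA groups overlapped, but the replicates were wider than for CAV1, and the differences were 0.47 ± 0.09 log2 under estradiol and 0.40 ± 0.09 under vehicle.

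Both genes of cell shape differed with hormone as well. ARHGAP29 encodes a GTPase-activating protein, and variants of the gene are known from cleft lip. It read 9.65, 9.70 and 9.74 log2 in siSRC-1_E, against 9.33, 9.20 and 9.28 in NT_E. It read 10.37, 10.17 and 10.20 in siSRC-1_V, against 9.93, 9.83 and 9.81 in NT_V. The knockdown difference was nearly the same under both treatments, 0.43 ± 0.06 log2 under estradiol and 0.39 ± 0.06 under vehicle, while both estradiol groups lay below both vehicle groups.

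RIPOR2, formerly FAM65B, encodes a protein of T cells and of the hair cells of the inner ear. It read 6.94, 7.15 and 7.15 log2 in siSRC-1_E, against 6.65, 6.32 and 6.47 in NT_E. It read 6.14, 5.85 and 5.99 in siSRC-1_V, against 5.51, 5.54 and 5.75 in NT_V. Its 4 groups did not overlap, and both estradiol groups lay above both vehicle groups, the reverse of ARHGAP29. It was the dimmest of the 8 genes, with NT_V arrays near the lower quartile, and signal over background was not measured. The knockdown difference was 0.60 ± 0.10 log2 under estradiol and 0.39 ± 0.10 under vehicle.

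PTPN22 encodes a PEST-type tyrosine phosphatase that damps antigen-receptor signalling in lymphocytes. It read 7.51, 7.48 and 7.40 log2 in siSRC-1_E, against 7.42, 7.22 and 7.68 in NT_E. It read 7.93, 7.91 and 7.89 in siSRC-1_V, against 7.09, 7.33 and 7.23 in NT_V. The siSRC-1_V arrays lay close together and above the other 9 arrays, whereas the estradiol groups overlapped. The knockdown difference was 0.02 ± 0.10 log2 under estradiol, rank 11206 of 29094, and 0.69 ± 0.10 under vehicle, rank 3. NT_E had the widest spread (SD 0.23). Without replicate 3 of NT_E, its highest array, the difference under estradiol was 0.14 log2, and without replicate 2 it was -0.09.

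PSTPIP2 is an F-BAR adaptor of macrophages that binds PEST-type phosphatases, and its loss in mice causes inflammatory bone disease. It read 7.59, 7.50 and 7.60 log2 in siSRC-1_E, against 7.22, 7.22 and 7.33 in NT_E. It read 7.59, 7.63 and 7.74 in siSRC-1_V, against 7.26, 7.26 and 7.13 in NT_V. Hormone groups overlapped within each siRNA, and siRNA groups did not: the difference was 0.31 ± 0.06 log2 under estradiol and 0.44 ± 0.06 under vehicle. CBX6 is a chromodomain subunit of Polycomb repressive complex PRC1, which reads and maintains silenced chromatin. It read 10.15, 10.13 and 10.14 log2 in siSRC-1_E, against 9.96, 9.91 and 9.86 in NT_E. It read 10.12, 10.19 and 10.21 in siSRC-1_V, against 9.80, 9.79 and 9.78 in NT_V. Its differences, 0.23 ± 0.04 log2 under estradiol and 0.38 ± 0.04 under vehicle, were the smallest of the set apart from PTPN22 under estradiol.

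**Figure D2:**
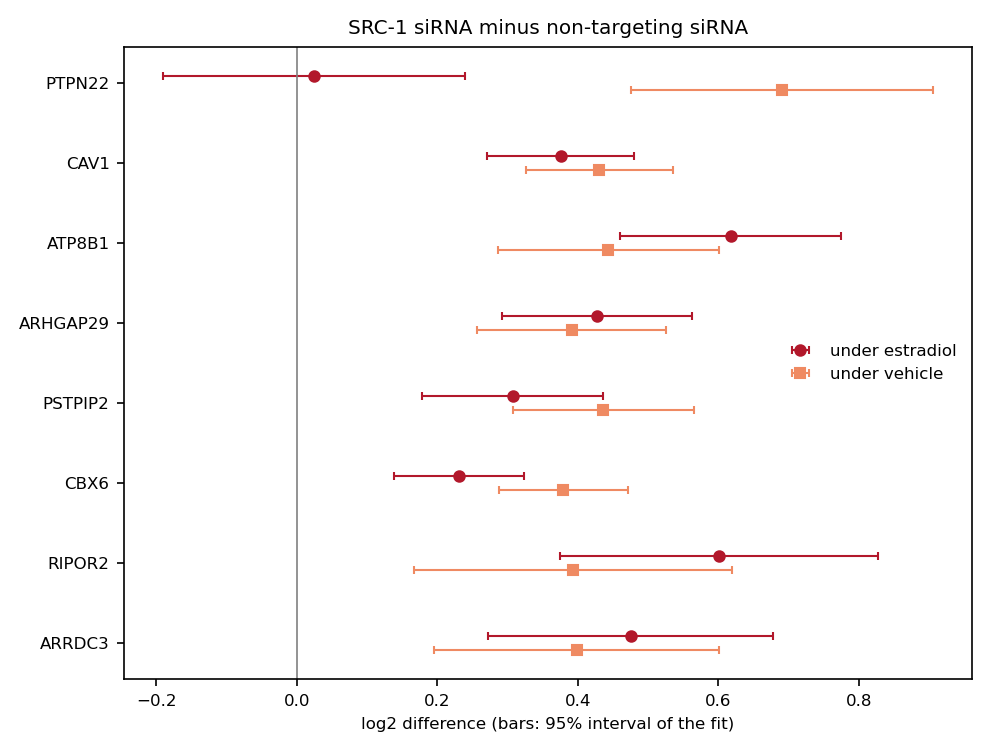
Difference between SRC-1 siRNA and non-targeting siRNA arrays (x axis, log2) for each gene (y axis), under estradiol (circles) and vehicle (squares), with the 95% interval of the fit. The intervals of the 2 treatments overlap for each gene but PTPN22, whose value was 0.02 under estradiol and 0.69 under vehicle; the members were picked on these contrasts.

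Whether the knockdown difference depended on hormone was described by the difference of differences, estradiol minus vehicle. It was -0.67 log2 for PTPN22 (95% interval -0.97 to -0.36), ranging over -0.78 to -0.55 when each array was left out. For CBX6 it was -0.15 (-0.28 to -0.02) and for PSTPIP2 -0.13 (-0.31 to 0.05). It was 0.21 for RIPOR2 (-0.11 to 0.53) and 0.17 for ATP8B1 (-0.05 to 0.40). CAV1 (-0.05, from -0.20 to 0.09), ARHGAP29 (0.04, from -0.15 to 0.23) and ARRDC3 (0.08, from -0.21 to 0.36) had values nearest 0. A gene picked for a large difference under 1 treatment tends to show such a gap, so none of these was tested for the members. Across all 29094 probe sets limma called 0 for this difference (percent called 0). No adjusted p was under 0.392, and 2102 had an unadjusted p under 0.05.

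The estradiol effect averaged over both siRNAs is uncorrelated by design with the knockdown contrasts, so it was tested. It does share their residual variance. RIPOR2 rose with estradiol 1.98-fold (0.98 ± 0.07 log2 SE, limma adjusted p = 6.29e-06). ARHGAP29 fell by 0.57 ± 0.04 log2, to 67.4% of vehicle (adjusted p = 7.77e-06). Its fall with non-targeting siRNA was among the known results of these data when the set was drawn up. That contrast is part of the averaged one, so the p-value of ARHGAP29 is only a description. The other 6 did not pass the test. Counting ARHGAP29, 2 of 8 were called, 1 in each direction, beside 9.96% of all tested probe sets, 6.11% higher and 3.85% lower.

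Of the 6 genes not called, CAV1 and ARRDC3 had 95% intervals that left out 0. CAV1 differed by -0.08 log2 (-0.15 to -0.01, adjusted p = 0.161), ARRDC3 by -0.15 (-0.29 to -0.004, adjusted p = 0.181) and ATP8B1 by -0.11 (-0.22 to 0.004, adjusted p = 0.209). PSTPIP2 differed by -0.02 (-0.12 to 0.07) and CBX6 by 0.04 (-0.03 to 0.11). PTPN22 differed by -0.11 (-0.26 to 0.04), an average of opposite values given below. With a trended and robust variance CAV1 was called too (adjusted p = 0.0434).

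Control-type probe sets, which were not tested, also read higher with estradiol. Their array mean, as a deviation from the mean of all arrays, was 0.094 to 0.178 log2 in siSRC-1_E and -0.159 to -0.024 in siSRC-1_V, and -0.003 to 0.068 in NT_E and -0.123 to -0.039 in NT_V. With this mean as a covariate, the estradiol difference of RIPOR2 was 0.86 ± 0.17 log2 and no longer called (adjusted p = 0.0614). That of ARHGAP29 was -0.72 ± 0.09 and still called (0.00455). In the fits that each left out 1 of the 12 arrays, RIPOR2 stayed between 0.94 and 1.02 log2 and ARHGAP29 between -0.59 and -0.54, called in every one.

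Within each siRNA the hormone differences are given as values, because each shares arrays with the contrasts that chose the genes. RIPOR2 differed by 1.09 ± 0.10 log2 with SRC-1 siRNA and by 0.88 ± 0.10 with non-targeting siRNA. ARHGAP29 differed by -0.55 ± 0.06 and -0.59 ± 0.06. PTPN22 differed by -0.44 ± 0.10 with SRC-1 siRNA, where no arrays overlapped, and by 0.22 ± 0.10 with non-targeting siRNA, where they did. Without replicate 3 of NT_E that second value was 0.10 log2, and without replicate 2 it was 0.33. ATP8B1 read -0.02 ± 0.07 with SRC-1 siRNA and -0.19 ± 0.07 with non-targeting siRNA. CBX6 read -0.03 ± 0.04 and 0.11 ± 0.04, PSTPIP2 -0.09 ± 0.06 and 0.04 ± 0.06, CAV1 -0.11 ± 0.05 and -0.05 ± 0.05, and ARRDC3 -0.11 ± 0.09 and -0.19 ± 0.09.

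**Figure D3:**
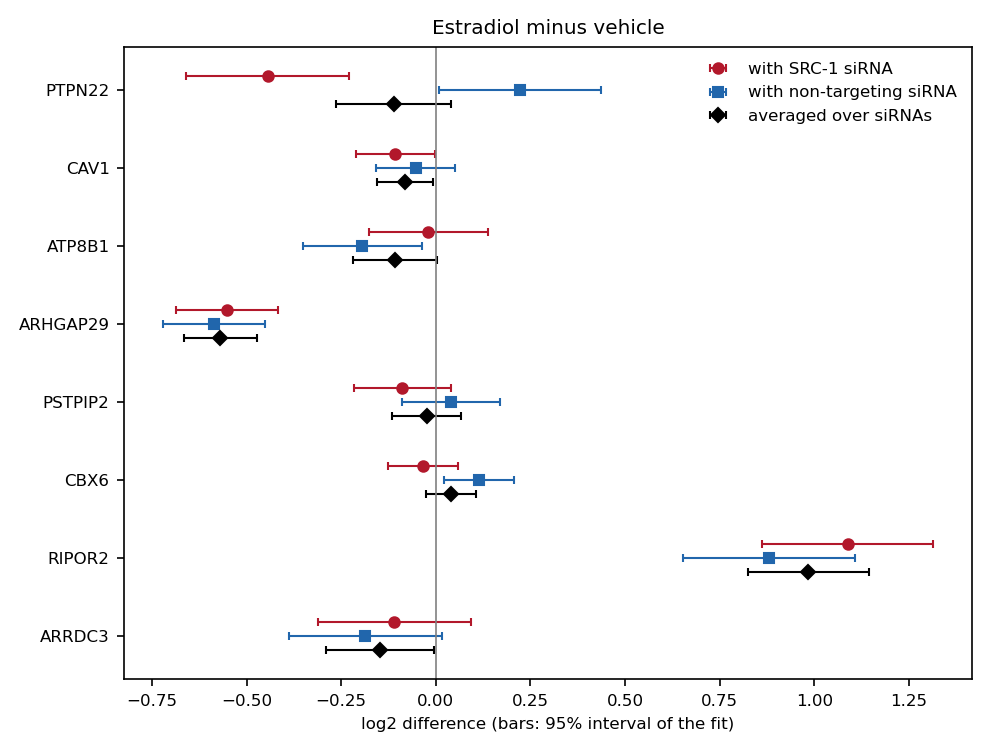
Difference between estradiol and vehicle arrays (x axis, log2) for each gene (y axis), with SRC-1 siRNA (circles), with non-targeting siRNA (squares) and averaged (diamonds), with the 95% interval of the fit. RIPOR2 lies near 1 and ARHGAP29 near -0.57, and the circle and square of PTPN22 lie on opposite sides of 0.

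The order of the 4 groups therefore took different forms. CAV1, ATP8B1 and ARRDC3 ran siSRC-1_V, siSRC-1_E, NT_V, NT_E from high to low, while PSTPIP2 and CBX6 had NT_E above NT_V. In these 5 genes each SRC-1 siRNA group lay above each non-targeting group. Neighbouring hormone groups overlapped between siSRC-1_V and siSRC-1_E for ATP8B1, PSTPIP2, CBX6 and ARRDC3, and between NT_V and NT_E for CAV1 and PSTPIP2. In PTPN22 only siSRC-1_V stood clear of its neighbour in the order. In RIPOR2 both differences had the same sign, and siSRC-1_E was 2.79-fold above NT_V (7.08 against 5.60 log2). In ARHGAP29 they had opposite signs, and siSRC-1_E was 0.16 log2 below NT_V (9.70 against 9.86).

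Members were also compared by how single arrays departed from their group means, which the choice of genes did not use. Over the 28 pairs of members, Pearson's r of these departures across 12 arrays had a median of 0.02 and lay between -0.68 (CAV1 and CBX6) and 0.79 (PTPN22 and CAV1), with 17 above 0. These r values rest on 8 residual degrees of freedom and are given as a description. Within a group, arrays with a high CAV1 for that group were thus not high for the other members throughout. This does not describe levels across groups, where r of the values was, for example, 0.92 for CAV1 and ARRDC3 and 0.25 for CAV1 and RIPOR2.

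The probe sets whose log2 values were most like each member over the 12 arrays were found by Pearson's r, as a description over arrays that share their groups. CAV1 was nearest to RNF169, a ubiquitin ligase of the DNA damage response (r = 0.98), and to MAPKAP1 (0.98). ATP8B1 was nearest to PM20D2 (0.97) and CPA4, a carboxypeptidase (0.96), and ARRDC3 to CD109, a surface glycoprotein (0.97), and TRIM24, a nuclear receptor cofactor (0.97). ARHGAP29 was nearest to both probe sets of ST6GALNAC5, a sialyltransferase (0.98 and 0.97). RIPOR2 was nearest to ABCD3, a peroxisomal transporter (0.98), and MBOAT1, a lysophospholipid acyltransferase (0.98). PSTPIP2 was nearest to SNX12, a sorting nexin (0.98), and PSKH1, a kinase (0.97), and CBX6 to LMNB2, a nuclear lamin (0.95), and NOA1 (0.94). PTPN22 had the lowest values, with RIPK2, a kinase of innate immune signalling (0.88), and MED20, a Mediator subunit (0.88).

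Relatives of 6 of the 8 genes came from 5 lists of 63 genes, of which 56 were measured, leaving out the members. For the knockdown averaged over treatments, 3 rose and 4 fell, 12.5% of the 56 beside 5.1% of all tested probe sets (2.05% higher and 3.05% lower). Their median was -0.01 log2, against 0.00 for all probe sets. With the control-probe-set covariate 3 of the 7 lost their calls: ATP8B2 (adjusted p = 0.0918), TMEM30A (0.0765) and PTPN18 (0.0516).

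Caveolar genes did not pass the test with CAV1: 0 of 7 were called by limma, beside 5.1% of all tested probe sets, with 2 at an unadjusted p under 0.05. The share of all probe sets at that unadjusted cut is not given here, so nothing is read from such counts in this or the other lists. CAV2 was on the list but was not matched to a probe set. The 2 were CAVIN2, which differed by 0.19 ± 0.07 log2 (SE), and PACSIN2, an F-BAR protein of caveolar necks, by -0.07 ± 0.03. CAVIN1, the coat protein of caveolae, differed by -0.02 ± 0.04. Among 14 P4-ATPases and CDC50 subunits, 2 rose and 1 fell. ATP9A, an endosomal flippase, rose 1.24-fold (adjusted p = 0.00182), TMEM30A, a CDC50 subunit that many but not all flippases need to leave the endoplasmic reticulum, 1.10-fold (0.0381), and ATP8B2 fell by 0.14 log2 (0.0255). When each array was left out in turn, TMEM30A lost its call in 11 of 12 fits and ATP8B2 in 8, with adjusted p up to 0.0846 and 0.066.

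Relatives and ligase partners of ARRDC3 fell where they passed: 0 of 9 α-arrestins and NEDD4-type ligases rose and 2 fell. NEDD4, the ligase itself, fell by 0.33 ± 0.04 log2 (adjusted p = 0.000786). TXNIP, an α-arrestin that limits glucose uptake, fell by 0.26 ± 0.04 (0.0057). Its difference was -0.37 ± 0.06 log2 under estradiol (limma adjusted p = 0.0103) and -0.14 ± 0.06 under vehicle (0.365, not called).

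Of 15 PEST-type phosphatases and F-BAR adaptors, 1 rose and 1 fell: FNBP1L, which drives actin assembly on curved membrane, rose 1.20-fold (adjusted p = 0.00137), and PTPN18, a PEST-type phosphatase like PTPN22, fell by 0.22 log2 (0.0115). Of 11 measured PRC1 subunits besides CBX6, 0 were called by limma, beside 5.1% of all tested probe sets, with 4 at an unadjusted p under 0.05. PCGF6 differed by -0.10 ± 0.04 log2 and PHC1 by -0.08 ± 0.03. Of 9 interferon-response genes, which transfected RNA can switch on, 0 were called for the knockdown, beside 5.1% of all tested probe sets. At an unadjusted p under 0.05 there were 2. The summed level of the 9 was 57.15 to 57.85 log2 in siSRC-1_E, against 56.92 to 57.77 in NT_E, and 58.39 to 58.75 in siSRC-1_V, against 57.83 to 58.43 in NT_V. With estradiol 1 of the 9 was called: IFIH1, a sensor of double-stranded RNA, fell by 0.17 log2 (adjusted p = 0.0341), a call lost in 9 of the 12 fits without 1 array (adjusted p up to 0.0796).

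**Figure D4:**
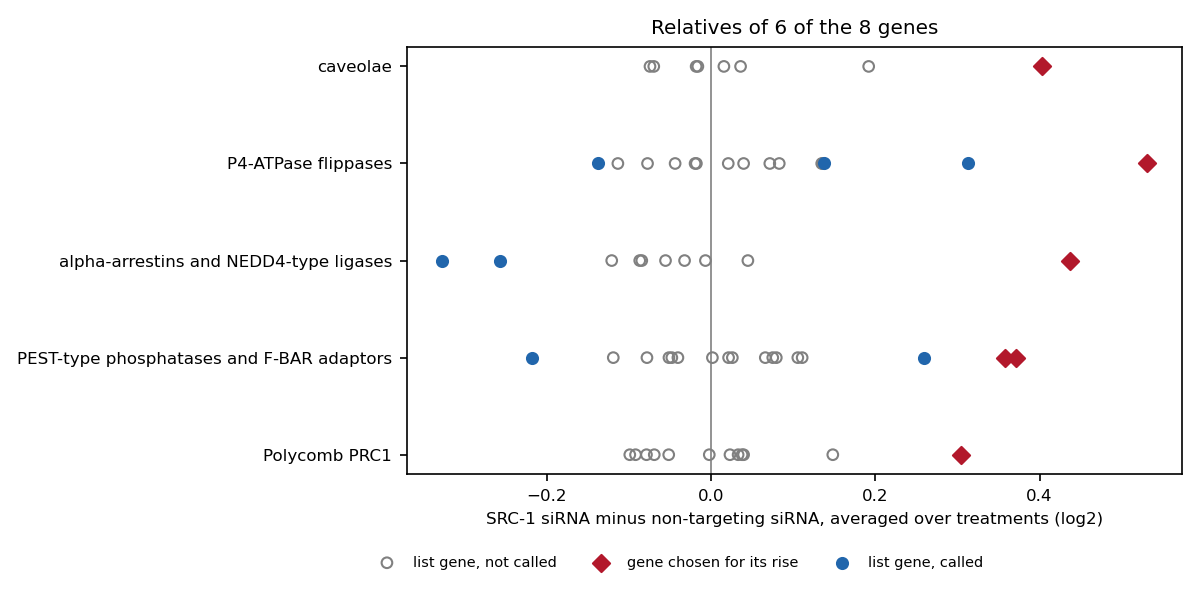
Difference between SRC-1 siRNA and non-targeting siRNA arrays averaged over treatments (x axis, log2) for relatives of 6 of the 8 genes (y axis, 5 lists). Diamonds are those 6 genes, picked on this difference, filled circles are called list genes and open circles are list genes not called. NEDD4 is lowest at -0.33 and ATP9A is the highest list gene at 0.31.

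With estradiol averaged over siRNAs, 5 of the 56 relatives rose and 6 fell (19.6%, against 9.96% of all). The α-arrestins ARRDC4 and TXNIP fell by 0.36 ± 0.04 and 0.37 ± 0.04 log2 (adjusted p = 0.000139 and 0.000214), beside -0.15 ± 0.07 for ARRDC3, which was not called. ATP11A, a plasma membrane flippase, rose 1.16-fold (adjusted p = 0.00407), PCGF3, a PRC1 subunit, 1.17-fold (0.00119), and PTPN12, a PEST-type phosphatase, fell by 0.18 log2 (0.00431). The other genes called were ITCH, CSK and PHC2, which rose by 0.12 to 0.16 log2, and ATP9A, NEDD4L and FCHSD2, which fell by 0.15, 0.11 and 0.11. The 5 genes given first kept their calls whichever of the 12 arrays was left out. The other 6 lost theirs in 5 to 12 of these fits. All 11 relatives called for estradiol, those 5 included, lost their calls with the control-probe-set covariate, which separates the treatments.

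The promoters of PTPN22, ARHGAP29 and RIPOR2 are shown because these genes departed most from a plain siRNA difference. RefSeq windows (GRCh38.p14, 250 bases before to 50 after the gene's start) were matched for 7 of the 8 genes. Capitals mark letters of the motifs searched on both strands: the core GGTCA of the estrogen response element, its palindrome GGTCANNNTGACC, the AP-1 site TGANTCA, the E-box CACGTG, the FOXO site TGTTTAC, the TEAD site GGAATG and TATAAA. The core is contained in the palindrome.
PTPN22, chr1:113871663-113871962 (- strand): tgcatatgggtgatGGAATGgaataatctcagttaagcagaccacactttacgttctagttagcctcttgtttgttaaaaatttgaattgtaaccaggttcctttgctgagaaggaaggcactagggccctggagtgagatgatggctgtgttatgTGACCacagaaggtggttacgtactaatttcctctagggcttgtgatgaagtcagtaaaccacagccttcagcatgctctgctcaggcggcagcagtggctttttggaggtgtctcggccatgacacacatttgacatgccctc
ARHGAP29, chr1:94247697-94247996 (- strand): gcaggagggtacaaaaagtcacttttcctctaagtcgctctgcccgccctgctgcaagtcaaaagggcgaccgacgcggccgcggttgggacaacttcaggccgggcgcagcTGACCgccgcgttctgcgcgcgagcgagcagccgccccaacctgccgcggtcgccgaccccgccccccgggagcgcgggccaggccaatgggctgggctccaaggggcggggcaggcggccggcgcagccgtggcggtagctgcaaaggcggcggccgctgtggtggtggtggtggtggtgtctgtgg
RIPOR2, chr6:24935911-24936210 (- strand): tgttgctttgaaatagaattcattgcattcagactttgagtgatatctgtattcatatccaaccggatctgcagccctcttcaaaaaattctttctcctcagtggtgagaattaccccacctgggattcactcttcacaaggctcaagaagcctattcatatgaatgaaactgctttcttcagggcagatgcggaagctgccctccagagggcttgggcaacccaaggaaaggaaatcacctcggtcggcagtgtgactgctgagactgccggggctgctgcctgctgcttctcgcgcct
The core occurred in 2 of the 7 windows, PTPN22 and ARHGAP29, on the reverse strand (TGACC) from 94 and 138 bases before the start, beside 37.4% of the 35116 windows of this length. The palindrome occurred in 0 of 7, beside 0.057% of all, and the AP-1 site in 0 of 7, beside 7.71%. The TEAD letters occurred in PTPN22 alone (14% of all windows) and the E-box in CBX6 alone (7.26%). FOXO letters (3.42% of all) and TATAAA (11.5%) were in none of the 7. The RIPOR2 window held no searched motif, which says only that these letters are not in this window. The windows of CBX6 and ARHGAP29 were the richest in G and C, at 76.7% and 72%, and those of PTPN22 and RIPOR2 the poorest, at 46.7% and 49.3%, around a median of 58.7% over all windows.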

How the data were processed

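The authors deposited log2 expression values per probe set, made from CEL files with the affy package, per the series' design text, which also names limma; versions, background correction and summarization are not given in the sources used here. Nothing was renormalized. The table has 33297 probe sets. The 4203 whose identifiers precede 7896740, where gene annotation begins, were taken to be controls, which no source states, and 29094 were tested; 19460 carry 1 symbol, 1754 several and 7880 none. One mean per group was fitted to 12 arrays with limma 3.58.1 in R 4.3.3 (two-sided, Benjamini-Hochberg adjustment over all tested probe sets; 8 residual and 3.15 prior degrees of freedom). A call needed p under 0.01 and adjusted p under 0.05. Precision is limited by having 3 arrays a group. The fit was tested on simulated data with added estradiol shifts and independent noise. That simulation had no link between arrays and covered no knockdown contrast. The members and lists were chosen with earlier results of these data known, and 1 list of relatives is not reported here. Named are the members; NCOA1, NCOA2 and ESR1 (NCOA3 is not analysed here); per list and averaged contrast up to 4 called genes with the smallest p or, with none called, up to 2 with the highest mean; and the 2 probe sets most like each member. RUNX2, COL1A2, PTPRC and CAVIN2 were named after their values were seen. Alternatives were a replicate block, other probe-set filters, scalings, variance models, array weights, a covariate, thresholds, the compared arrays alone and leaving out each array. No member had a further probe set of its own, so that alternative gave no value.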

Additional observations from a re-analysis of the deposited data

Results flagged for a closer look

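In PTPN22, PSTPIP2 and CBX6 the hormone difference had opposite signs in the 2 siRNA settings: each of the 3 estradiol arrays with SRC-1 siRNA lay below the mean of its vehicle arrays, and each with non-targeting siRNA lay above. The gap, SRC-1 siRNA minus non-targeting siRNA, was -0.67 log2 for PTPN22, -0.13 for PSTPIP2 and -0.15 for CBX6. The difference was not tested for these genes, because they had been picked on contrasts that contain it; limma called 0 of 29094 probe sets for it, with 2102 at an unadjusted p under 0.05. For PSTPIP2 the 95% interval covered 0. The opposite signs were not stable for either PSTPIP2 or CBX6. PSTPIP2 with non-targeting siRNA read 0.04 log2, and -0.0034 without NT_V replicate 3. CBX6 with SRC-1 siRNA read -0.03 log2, and 0.06 with the control-probe-set covariate. The NCOA1 transcript left was 21.5% under estradiol and 13.2% under vehicle. That difference, 0.71 log2 (95% interval 0.36 to 1.06), did not pass the test (limma adjusted p = 0.442). Its part in the PTPN22 gap was not tested.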

How the results depend on the processing

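Over 22 alternatives, 173 of 176 values of the members for the averaged estradiol effect kept direction and side of the threshold. RIPOR2 lost its call with the covariate, which left 1 member called, and ARHGAP29 did so at a fold change of at least 1.5, which also left 1; CAV1 gained one with a trended and robust variance. Of 912 values of members, within single treatments or siRNAs or for the difference of differences, 903 moved by less than the spread between replicates. The 9 others moved with the covariate. Members called for the knockdown under estradiol, 7 in the deposited values, numbered 2 with the covariate, 3 at an adjusted p under 0.01, 2 at a fold of at least 1.5 and 3 with the compared arrays only; under vehicle 6 became 1 at that fold. Leaving out single arrays gave 3 to 7 under estradiol: 3 without NT_E replicate 2, and 4 without NT_E replicate 3 or any 1 of the siSRC-1_E arrays.

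The replicate numbers were not taken as pairs, because 6 of 18 same-numbered pairs, not all, correlated above 0.1 (-0.035 to 0.208). In 25 of 36 comparisons an array was nearest its own number, a hint of pairing from the data that the labels do not state. With the replicate block 3290 probe sets were called for the averaged estradiol effect against 2898 without it, and no member's call changed; among relatives ATP9A (adjusted p = 0.057) and FCHSD2 (0.0621) lost theirs for estradiol and TMEM30A (0.0524) for the knockdown.

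Counts over all probe sets moved more. For estradiol averaged, with SRC-1 siRNA and with non-targeting siRNA (2898, 2001 and 793), they were 212, 106 and 366 with the covariate, 1303, 801 and 422 at an adjusted p under 0.01, and 206, 302 and 165 at a fold of at least 1.5. With SRC-1 siRNA the count was 958 with the compared arrays only and 1042 to 2956 leaving out single arrays. For the knockdown averaged, under estradiol and under vehicle (1483, 524 and 352), they were 2344, 1117 and 728 without the lowest 40% of probe sets, 2422, 1246 and 857 with a trended and robust variance, 535, 167 and 145 at an adjusted p under 0.01, and 43, 63 and 41 at a fold of at least 1.5. With the covariate the averaged and estradiol counts were 863 and 121, and with the compared arrays only the estradiol and vehicle counts were 174 and 90. Leaving out single arrays gave 897 to 1274, 216 to 547 and 169 to 338. For the difference of differences a trended and robust variance called 2. The cause of these shifts was not tested. NCOA1 kept its averaged knockdown call under every alternative, between -2.65 and -2.51 log2 leaving out single arrays. Signal over background was not measured, which limits what can be said of RIPOR2 in vehicle arrays.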

Other observations

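The protein-coding genes next to each member on the chromosome, in the order of the RefSeq annotation of GRCh38.p14, were read after the members had been described. Of 13 that were measured, 3 rose with SRC-1 siRNA averaged over treatments and 0 fell, beside 2.05% and 3.05% of all tested probe sets. MET, a receptor tyrosine kinase gene next to CAV1, rose by 0.23 ± 0.03 log2 (SE, limma adjusted p = 0.00199). RSBN1, next to PTPN22, rose by 0.18 ± 0.04 (0.0266), and ABCD3, next to ARHGAP29, by 0.14 ± 0.03 (0.0276). With estradiol MET fell by 0.15 log2 (adjusted p = 0.0113), NEDD4L, next to ATP8B1, fell by 0.11 (0.0477) and ABCD3 rose by 0.35 (3.02e-05), whereas its neighbour ARHGAP29 fell. Leaving out each of the 12 arrays in turn, a check chosen after these values were seen, ended the knockdown call of RSBN1 in 8 fits (adjusted p up to 0.0666) and of ABCD3 in 7 (up to 0.0726), and the estradiol call of NEDD4L in 11 (up to 0.107). It ended neither call of MET, nor the estradiol call of ABCD3. With the control-probe-set covariate only the knockdown call of MET was kept among these 6. ABCD3 was also the probe set most like RIPOR2, which lies on another chromosome.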
